A study of Rattus norvegicus with 17 samples.

Results

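FKBP genes encode the immunophilins that bind the drug FK506. The 10 members described here are Fkbp1a, Fkbp1b, Fkbp2, Fkbp3, Fkbp4, Fkbp5, Fkbp8, Fkbp9, Fkbp10 and Fkbp14. They were chosen by name as listed FKBP genes present in the deposited expression table, and all 10 were found among its 11247 gene labels. The cultures were primary rat cells from cerebral cortex, described as glutamatergic neurons together with astrocytes, and mRNA was sequenced. They had been infected to carry either Alpha-Synuclein A53T, a disease variant of a protein of the presynaptic terminal that forms aggregates in Parkinson's disease, or an Empty Vector. Each was treated with the solvent DMSO, with 0.2 µM FK506 or with 2.0 µM FK506, doses that the submitters call below saturation and saturating. There were 17 libraries in 6 groups, namely A53T at 0.2 µM, A53T at 2.0 µM, A53T in DMSO, vector at 0.2 µM, vector at 2.0 µM and vector in DMSO. Each group had 3 libraries except A53T in DMSO, which had 2. The virus, its promoter and the cell type that expressed the transgene are not given in the sources used here. Whether libraries of 1 group were grown as separate cultures is not stated either, so p-values measure the spread between these libraries, which may be technical.

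FKBP proteins carry a fold that catalyses the turn of peptide bonds next to proline. FK506 fills this pocket in FKBP12, the product of Fkbp1a, and the complex of drug and protein inhibits calcineurin, a phosphatase that calcium activates and that is abundant in neurons. Other members sit elsewhere in the cell. Fkbp4 and Fkbp5 encode partners of the chaperone HSP90 that bind steroid receptors, Fkbp3 encodes a nuclear member, Fkbp8 encodes a protein of the mitochondrial outer membrane, and Fkbp2, Fkbp9, Fkbp10 and Fkbp14 encode proteins of the endoplasmic reticulum (ER).

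Values are the authors' normalized counts, and totals ran from 15091428 to 18335540 per library. The raw depth is unknown, so no counting error is given. Several features of the libraries bear on the results. The 3 libraries of A53T at 0.2 µM differed from each other by 0.995 to 1.05 times Poisson sampling noise for genes with means from 10 to 3000, against 1.48 to 14.5 times in pairs from the other groups, and were counted as 1 sample. For means from 3000 to 10000, where Fkbp1a and Fkbp8 lay in these libraries, they differed by 1.15 to 1.77 times, which is above sampling noise, against 2.9 to 138 times in the others. The noise was computed as if normalized values were raw counts, so these multiples are approximate. In the 3 libraries of A53T at 0.2 µM, 75 ribosomal protein genes held 2.16% to 2.17% of the counts, against 4.1% to 8.63% in all others. In 3 further libraries this share lay at least 1 percentage point above that of both replicates, while the highest library of vector in DMSO was at 4.98% against 4.77% and 4.5%. The 3 were A53T at 2.0 µM replicate 1 (8.63% against 6.44% and 6.32%), vector at 0.2 µM replicate 1 (5.29% against 4.1% and 4.22%) and vector at 2.0 µM replicate 2 (6.97% against 5.79% and 5.56%). Astrocyte markers (10 of 10 listed) and neuron markers (9 of 10) were present in the table, and 0 of 7 microglia markers were. The summed astrocyte markers ran from 82799 to 86615 normalized counts in A53T cultures in DMSO, from 60289 to 60605 at 0.2 µM and from 51770 to 54407 at 2.0 µM. In vector cultures they ran from 103023 to 104758 in DMSO, from 67028 to 70619 at 0.2 µM and from 44442 to 45554 at 2.0 µM. Summed neuron markers ran from 54625 to 55929 in A53T cultures in DMSO, from 64289 to 65183 at 0.2 µM and from 43988 to 48251 at 2.0 µM, and in vector cultures from 55764 to 60553 in DMSO, from 50341 to 50605 at 0.2 µM and from 40233 to 41991 at 2.0 µM. Glutamatergic markers (7 of 7) ran from 15162 to 15604 in A53T at 0.2 µM, against 3729 to 12770 in all other libraries. GABAergic markers (5 of 7) ran from 10157 to 13089 in A53T at 2.0 µM and from 15534 to 15836 in A53T in DMSO, and from 11476 to 13437 in vector at 2.0 µM and from 29632 to 33510 in vector in DMSO. Sums weigh genes with high counts most, and single markers did not all move with them. In A53T cultures at 2.0 µM against DMSO, 3 of 10 astrocyte markers were called higher and 4 lower by the test defined below. Of all genes 19.7% were higher and 17.9% lower. In vector cultures 2 were higher and 8 lower, with 23.4% and 23.8% of all genes. Of 9 neuron markers 3 were higher and 3 lower in A53T cultures at 0.2 µM against DMSO, with 33.6% and 34.2%. The cultures are bulk samples, in which fewer cells of a type and less RNA per cell cannot be told apart, and the part of cell composition in the results was not tested.

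In cultures given no drug, Fkbp1b and Fkbp4 were lower and Fkbp9 was higher in A53T than in vector cultures. At 2.0 µM FK506, Fkbp9 and Fkbp10 rose and Fkbp1b, Fkbp2, Fkbp3 and Fkbp8 fell in vector cultures. In A53T cultures Fkbp5 rose and Fkbp9 fell at that dose. Some of these calls, among them those without drug and those in A53T cultures at 2.0 µM, were lost in other fits described below. The group of A53T at 0.2 µM was the lowest, with no overlap, for 6 members. Differences are log2 fold changes on the log2(value + 1) scale with their standard errors (SE). A gene was called when its adjusted p from limma, by the Benjamini-Hochberg method over all 11247 genes, was under 0.05.

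Read against all genes, the shares of members called were as follows. For A53T against vector in DMSO, 1 of 10 members was higher and 2 were lower, while 5.85% of all genes were higher and 8.19% lower. For vector at 0.2 µM against DMSO, 0 members were higher and 3 were lower, with 7.7% and 10.6% of all genes. At 2.0 µM against DMSO in vector cultures, 2 members were higher and 4 lower, with 23.4% and 23.8% of all genes, and at 2.0 µM against 0.2 µM, 2 were higher and 1 lower, with 18.0% and 15.7%. In A53T cultures 1 member was higher and 1 lower at 2.0 µM against DMSO, with 19.7% and 17.9% of all genes. At 2.0 µM, 1 member was higher and 2 were lower in A53T than in vector cultures, with 9.88% and 9.7% of all genes. The median log2 fold change of the 10 members was -0.19 for A53T against vector in DMSO, -0.14 for 2.0 µM against DMSO in vector cultures and 0.08 for 2.0 µM against DMSO in A53T cultures, and the median of all genes was 0.01 or closer to 0 in each. Without the 3 libraries with a high ribosomal share, an alternative chosen after seeing the data, the number of members called became 8 for A53T against vector in DMSO, 5 for vector at 0.2 µM, 9 for vector at 2.0 µM, and 4 for A53T at 2.0 µM, each against DMSO. That fit kept 51 of the 53 calls made over all comparisons and added 18. It left out libraries that lay apart from their replicates, which tends to lower the spread that the p-values rest on. Its lower adjusted p-values, here and below, therefore add no weight to a difference. The share of all genes called in that fit, and in fits with 1 library left out, is not given here. A change in these counts, or in those of the gene lists below, is thus not a result about the members or the lists. Leaving out 1 library lowered other counts. The 3 calls for A53T against vector in DMSO became 0 without A53T in DMSO replicate 1 and 1 without its unnumbered library. The 3 calls for vector at 0.2 µM against DMSO became 0 without either library of A53T in DMSO, vector in DMSO replicate 2 or 3, or vector at 0.2 µM replicate 2 or 3, and 1 without vector in DMSO replicate 1.

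**Figure D1:**
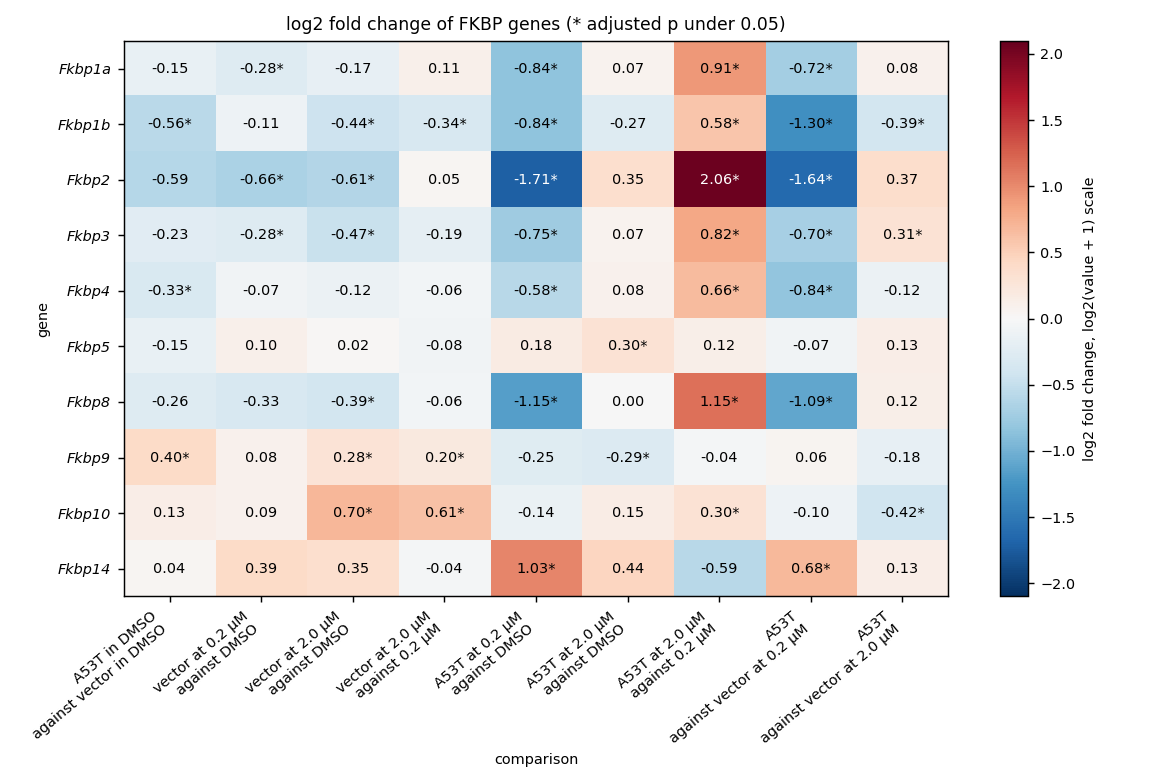
log2 fold change (log2(value + 1) scale) of the 10 FKBP genes (rows) in the 9 pairwise comparisons (columns); red is higher and blue lower in the group named first, and an asterisk marks an adjusted p under 0.05 from limma. The columns with A53T at 0.2 µM hold the deepest colours, from -1.71 to 2.06 for Fkbp2, while Fkbp10 stands out at 2.0 µM in vector cultures with 0.70.

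Fkbp1a encodes FKBP12, the main receptor of FK506. In A53T cultures Fkbp1a had 12668 and 12716 normalized counts in DMSO, 7033, 7092 and 7076 at 0.2 µM, and 15043, 12577 and 12496 at 2.0 µM. Vector cultures had 13328, 14797 and 14264 in DMSO, 13014, 10988 and 11023 at 0.2 µM, and 12362, 13721 and 11696 at 2.0 µM. The libraries of A53T at 0.2 µM lay below all others, which ran from 10988 to 15043. The fall in vector cultures at 0.2 µM against DMSO (log2 fold change -0.28 ± 0.09 SE, adjusted p = 0.0495) lay at the threshold, and leaving out any 1 of 10 libraries ended the call, with the highest adjusted p (0.173) without vector at 0.2 µM replicate 3. At 2.0 µM the difference from DMSO was -0.17 ± 0.09 in vector cultures (adjusted p = 0.146) and 0.07 ± 0.10 in A53T cultures (adjusted p = 0.596). Without the 3 libraries with a high ribosomal share, a choice that lowers the spread between replicates, that difference in vector cultures was -0.23 with adjusted p = 0.000361. In that fit A53T against vector in DMSO was -0.15 with adjusted p = 0.0147.

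Fkbp1b encodes the close relative of FKBP12 known for binding the ryanodine receptor, the calcium release channel of the ER. It had 342 and 344 normalized counts in A53T cultures in DMSO, 191, 200 and 182 at 0.2 µM, and 338, 272 and 251 at 2.0 µM. The vector libraries held 493, 469 and 561 in DMSO, 484, 473 and 452 at 0.2 µM, and 366, 398 and 354 at 2.0 µM. All A53T libraries lay below all vector libraries. Among the groups in the order of their means, only vector in DMSO and vector at 0.2 µM overlapped. In DMSO Fkbp1b was lower in A53T than in vector cultures (-0.56 ± 0.12, adjusted p = 0.00891), a call that ended when either library of A53T in DMSO was left out (highest adjusted p = 0.0808). It also fell in vector cultures at 2.0 µM against DMSO (-0.44 ± 0.11, adjusted p = 0.00445), and that call held with each library left out in turn. The fall at 2.0 µM against 0.2 µM (-0.34 ± 0.11, adjusted p = 0.0298) was lost without any 1 of 5 libraries of those 2 groups, with a highest adjusted p of 0.0882. In A53T cultures the difference at 2.0 µM was -0.27 ± 0.12 (adjusted p = 0.0937), and -0.39 (adjusted p = 0.00414) without the 3 libraries with a high ribosomal share. At 2.0 µM itself it was lower in A53T than in vector cultures (-0.39 ± 0.11, adjusted p = 0.0257), which was lost without any 1 of 4 libraries (highest adjusted p = 0.0804) and in a fit of only the 2 groups (adjusted p = 0.127). The test of whether the 2 genotypes differed in their response to 2.0 µM gave 0.18 ± 0.16 (adjusted p = 0.45).

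Of 13 listed partners of FKBP12 and its relative, 11 were measured. These are ryanodine and inositol trisphosphate receptors, receptors of the TGF-β family, the kinase mTOR with its subunit Raptor, and the EGF receptor. None was called for A53T against vector in DMSO, with 5.85% of all genes higher and 8.19% lower. Without the 3 libraries with a high ribosomal share 4 were higher and 0 lower, a count given without the share of all genes. In vector cultures at 2.0 µM, 2 rose and 4 fell against DMSO, with 23.4% and 23.8% of all genes, and 4 rose and 4 fell without those libraries. Mtor (-0.61 ± 0.07, adjusted p = 1.11e-05), Itpr1 (-0.65 ± 0.13) and Ryr2 (-0.58 ± 0.12) were among those that fell. In A53T cultures at 2.0 µM, 0 rose and 4 fell, while 19.7% of all genes were higher and 17.9% lower. Ryr2 was at -0.86 ± 0.14, Mtor at -0.37 ± 0.07 and Itpr1 at -0.65 ± 0.14. Subunit genes of calcineurin, the target of the drug complex, were read at 2.0 µM as well, at the level of mRNA only. Of 4 calcineurin subunits measured, 3 fell in vector cultures, among them the catalytic subunit Ppp3ca (-0.69 ± 0.17) and the regulatory subunit Ppp3r1 (-0.39 ± 0.07). In A53T cultures Ppp3ca (-0.73 ± 0.18) and Ppp3cb (-0.72 ± 0.24) fell and Ppp3cc rose (0.22 ± 0.07).

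**Figure D2:**
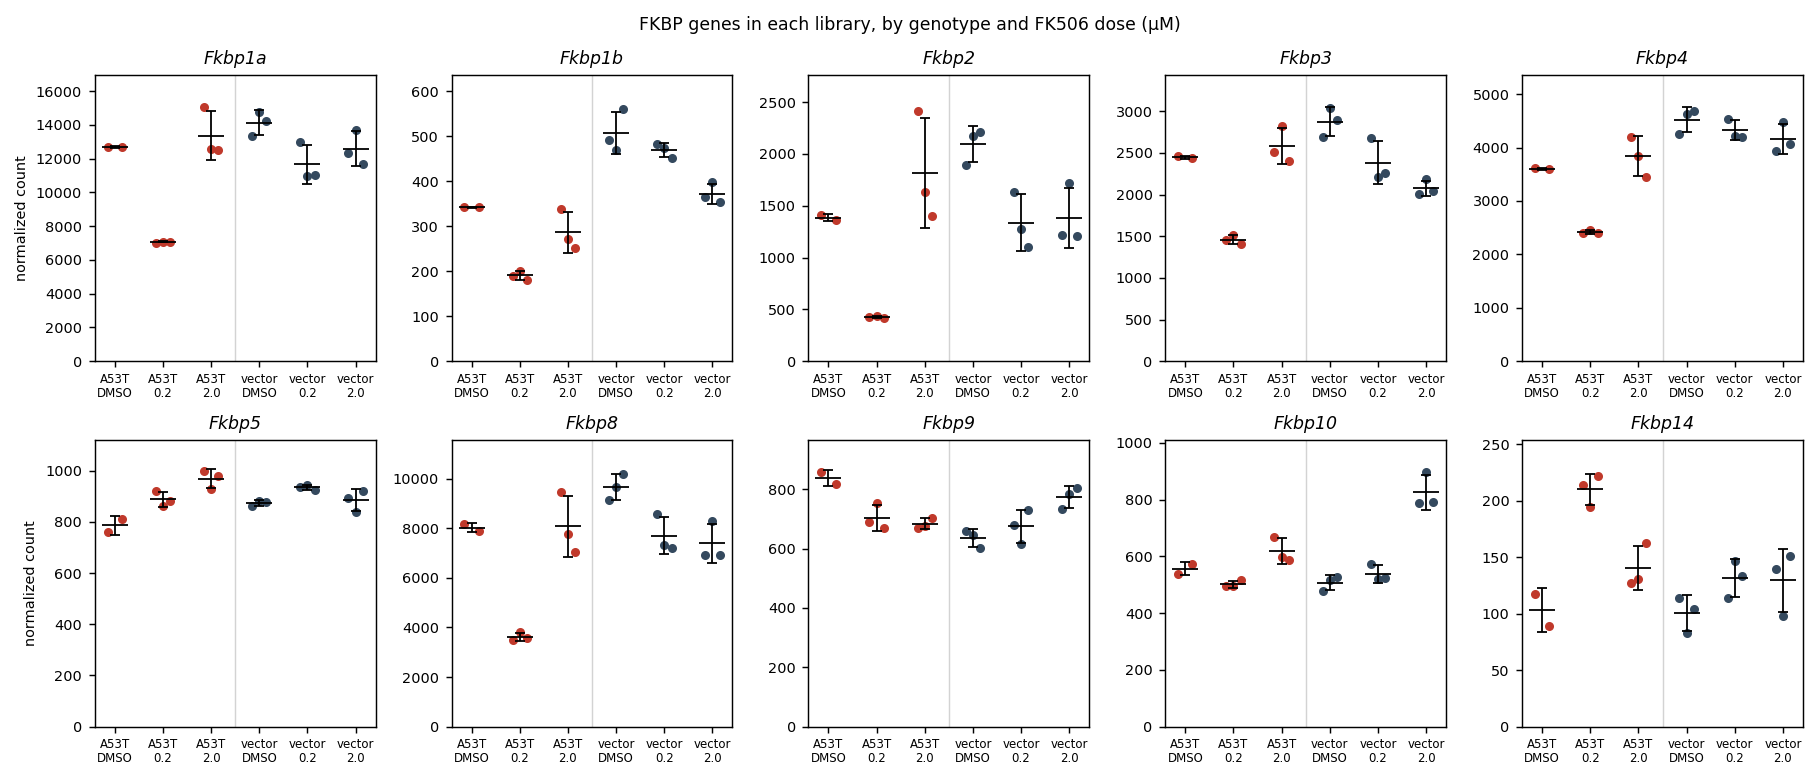
Normalized counts of each FKBP gene in every library (points) by group, with A53T cultures left of vector cultures in each panel and DMSO, 0.2 and 2.0 µM FK506 in order; horizontal bars are group means and error bars are SD. Fkbp1b runs from 182 to 344 in A53T and from 354 to 561 in vector cultures, and Fkbp10 reaches 790 to 898 only in vector at 2.0 µM.

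Fkbp4 and Fkbp5 encode the paired cochaperones of steroid receptors. The Fkbp4 product promotes transport of the bound receptor, and the Fkbp5 product lowers its affinity for hormone and is itself a classical glucocorticoid-induced gene. Fkbp4 had 3617 and 3592 normalized counts in A53T cultures in DMSO, 2396, 2464 and 2394 at 0.2 µM, and 4202, 3848 and 3456 at 2.0 µM. Its counts in vector cultures were 4253, 4633 and 4686 in DMSO, 4537, 4223 and 4202 at 0.2 µM, and 3945, 4471 and 4070 at 2.0 µM. In DMSO it was lower in A53T than in vector cultures (-0.33 ± 0.08, adjusted p = 0.0202), with no overlap of the libraries. That call ended without either library of A53T in DMSO or without replicate 2 or 3 of vector in DMSO (highest adjusted p = 0.127). At 2.0 µM against DMSO the difference was 0.08 ± 0.08 in A53T cultures (adjusted p = 0.423) and -0.12 ± 0.07 in vector cultures (adjusted p = 0.2).

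Fkbp5 varied least, with group means that spanned 0.30 on the log2 scale. It had 760 and 813 normalized counts in A53T cultures in DMSO, 921, 861 and 883 at 0.2 µM, and 1000.1, 928 and 979 at 2.0 µM. In vector cultures it had 860, 881 and 879 in DMSO, 937, 945 and 924 at 0.2 µM, and 895, 839 and 921 at 2.0 µM. In A53T cultures the 3 libraries at 2.0 µM were all above the 2 in DMSO, and Fkbp5 rose (0.30 ± 0.06, adjusted p = 0.00323). The call held with each library left out, but a fit of only those 2 groups gave adjusted p = 0.0627. In vector cultures the same dose gave 0.02 ± 0.06 (adjusted p = 0.813), and the difference between the responses was 0.28 ± 0.08 (adjusted p = 0.0413). Leaving out any 1 of 11 libraries ended that call (highest adjusted p = 0.168, without A53T in DMSO replicate 1), as did leaving out the 3 libraries with a high ribosomal share (0.22, adjusted p = 0.0533).

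Other genes that respond to glucocorticoids did not share 1 direction with Fkbp5. Of 17 measured, 2 rose and 6 fell in A53T cultures at 2.0 µM against DMSO, while 19.7% of all genes were higher and 17.9% lower. The median log2 fold change of the 17 was -0.23. Without the 3 libraries with a high ribosomal share 5 rose and 6 fell. Ddit4, an inhibitor of mTOR signalling, rose by 0.87 ± 0.11 and Tsc22d3, the glucocorticoid-induced leucine zipper, by 0.54 ± 0.08, while the sulfotransferase gene Sult1a1 was at -0.87 ± 0.20. In vector cultures 6 rose and 3 fell, with 23.4% and 23.8% of all genes. Tfcp2l1 (0.92 ± 0.11) and Sult1a1 (-1.32 ± 0.18) were among the 17. For A53T against vector in DMSO, 4 were higher and 1 lower, with 5.85% and 8.19% of all genes, and 6 and 3 without those libraries. Of 17 measured genes of the HSP90 and steroid receptor machinery, 1 rose and 2 fell at 2.0 µM in each genotype, against the shares of all genes just given for that dose. Without those libraries 4 rose and 2 fell in A53T cultures, and 2 rose and 2 fell in vector cultures. The glucocorticoid receptor gene Nr3c1 fell in A53T cultures (-0.40 ± 0.12, adjusted p = 0.0248), and Ahsa1, an activator of HSP90, rose (0.34 ± 0.10). In vector cultures Hsp90ab1 rose (0.15 ± 0.05) and Dnaja1 fell (-0.16 ± 0.04), and under quantile normalization the split of that list was 3 higher and 0 lower. For A53T against vector in DMSO 0 were higher and 2 lower, the tetratricopeptide cochaperones Tomm34 (-0.33 ± 0.06) and Ppp5c (-0.23 ± 0.05). In the fit that leaves out the 3 libraries with a high ribosomal share, 2 were higher and 5 lower.

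Fkbp3 encodes a nuclear FKBP that binds nucleic acid. It had 2460 and 2433 normalized counts in A53T cultures in DMSO, 1458, 1515 and 1402 at 0.2 µM, and 2510, 2821 and 2404 at 2.0 µM. Vector cultures held 2694, 3035 and 2891 in DMSO, 2675, 2210 and 2254 at 0.2 µM, and 2003, 2181 and 2037 at 2.0 µM. In vector cultures it fell at 2.0 µM against DMSO (-0.47 ± 0.08, adjusted p = 0.00045) with no overlap of the libraries, and that call held with each library left out. At 0.2 µM it also fell (-0.28 ± 0.08, adjusted p = 0.0357), a call lost without any 1 of 6 libraries (highest adjusted p = 0.14) and in a fit of only the 2 groups (adjusted p = 0.0546). In A53T cultures the difference at 2.0 µM was 0.07 ± 0.09 (adjusted p = 0.542). The 2 responses differed by 0.54 ± 0.12 (adjusted p = 0.0128), which was lost when either library of A53T in DMSO was left out (highest adjusted p = 0.0624). At 2.0 µM itself Fkbp3 was higher in A53T than in vector cultures (0.31 ± 0.08, adjusted p = 0.0191), which was lost without A53T at 2.0 µM replicate 2 or vector at 2.0 µM replicate 1 or 3 (highest adjusted p = 0.0769). Reads of Fkbp3 may be shared with the annotated pseudogenes Fkbp3-ps1 and Fkbp3-ps2 and with the overlapping gene Prpf39. Fkbp1a likewise has a pseudogene, Fkbp1a-ps1, and Fkbp1b, Fkbp2 and Fkbp8 overlap Sf3b6, Fkbp2l1 and Kxd1. The libraries were made with a stranded kit, but whether counting used strand is not given in the sources used here, so these levels are uncertain to that extent.

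Fkbp8 encodes a membrane-anchored FKBP of mitochondria that holds BCL-2 proteins there and recruits LC3 proteins in mitophagy. Its promoter is shown because calcineurin acts on transcription through NFAT factors and Fkbp8 was the only one of 8 members with a RefSeq promoter whose window held the NFAT core GGAAAA. The window runs from 250 bases before to 50 bases after the gene start, at chr16:18936494-18936793 on the minus strand of the RefSeq build GRCr8, and the capitals mark the core, 139 bases before the start.

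Fkbp8 promoter: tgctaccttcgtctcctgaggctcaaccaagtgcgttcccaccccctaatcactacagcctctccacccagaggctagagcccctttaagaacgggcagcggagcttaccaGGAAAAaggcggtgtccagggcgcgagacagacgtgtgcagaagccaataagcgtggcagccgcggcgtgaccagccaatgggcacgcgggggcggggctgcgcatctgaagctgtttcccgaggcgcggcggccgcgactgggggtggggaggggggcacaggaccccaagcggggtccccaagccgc

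The core was searched on both strands, and 24.3% of 27457 RefSeq promoters of the same length hold it. The match describes letters in this window and is not a binding site. The ER stress element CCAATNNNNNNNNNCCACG, the amino acid response elements ATTGCATCA and TTGCATCA (the second lies within the first), the heat shock element GAANNTTCNNGAA and the glucocorticoid response element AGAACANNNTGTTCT were searched in the same way and matched 0 of the 8 promoters. They are held by 0.076%, 0.193%, 0.743%, 0.736% and 0.007% of all promoters. Fkbp3 and Fkbp10 were not matched to a promoter.

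In A53T cultures Fkbp8 had 8165 and 7904 normalized counts in DMSO, 3475, 3803 and 3568 at 0.2 µM, and 9450, 7772 and 7052 at 2.0 µM. The counts in vector cultures were 9136, 9657 and 10186 in DMSO, 8586, 7322 and 7216 at 0.2 µM, and 6924, 8314 and 6942 at 2.0 µM. Every vector library given FK506 was below every vector library in DMSO. Fkbp8 fell at 2.0 µM (-0.39 ± 0.11, adjusted p = 0.00952), and this held with each library left out. At 0.2 µM the difference was -0.33 ± 0.11 (adjusted p = 0.0511), or -0.41 (adjusted p = 9.51e-06) without the 3 libraries with a high ribosomal share. In A53T cultures at 2.0 µM the libraries lay on both sides of those in DMSO, with a log2 fold change of -0.00 ± 0.12 (adjusted p = 0.998). The difference between the responses was 0.39 ± 0.16 (adjusted p = 0.115), and 0.36 (adjusted p = 0.00168) without those 3 libraries. Of 9 genes for its BCL-2, LC3 and related partners, 0 rose and 3 fell in vector cultures at 2.0 µM, with 23.4% and 23.8% of all genes. The 3 were Rheb (-0.38 ± 0.07), an activator of mTOR, Gabarapl2 (-0.41 ± 0.08), an LC3 relative, and Bcl2l1 (-0.30 ± 0.06), which encodes BCL-XL. In A53T cultures 2 rose, Gabarapl1 (0.24 ± 0.06) and Gabarap (0.41 ± 0.13), and 0 fell, with 19.7% and 17.9% of all genes. Without those 3 libraries 2 rose and 4 fell in vector cultures, and 3 rose and 0 fell in A53T cultures. Bcl2l1 and Gabarapl2 differed between the genotypes in their response to 2.0 µM, by 0.47 ± 0.09 (adjusted p = 0.00554) and 0.38 ± 0.12 (adjusted p = 0.0493).

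The 4 members that encode ER proteins did not move together. Fkbp10, a chaperone of procollagen whose loss in people causes a brittle bone disease, had 540 and 572 normalized counts in A53T cultures in DMSO, 497, 494 and 517 at 0.2 µM, and 670, 598 and 588 at 2.0 µM. Among vector libraries it had 478, 516 and 529 in DMSO, 574, 519 and 522 at 0.2 µM, and 790, 898 and 790 at 2.0 µM. The 3 vector libraries at 2.0 µM were above all 14 others. In vector cultures Fkbp10 averaged 826 ± 62 at 2.0 µM and 507 ± 26 in DMSO (SD, n = 3 each), a rise of 0.70 ± 0.08 (adjusted p = 1.52e-05). The rise over 0.2 µM was 0.61 ± 0.08 (adjusted p = 0.00012), and 0.2 µM differed from DMSO by 0.09 ± 0.08 (adjusted p = 0.464). In A53T cultures the difference at 2.0 µM was 0.15 ± 0.09 (adjusted p = 0.185), although its 3 libraries were all above the 2 in DMSO. At 2.0 µM Fkbp10 was lower in A53T than in vector cultures (-0.42 ± 0.08, adjusted p = 0.00378). The responses of the genotypes differed by -0.55 ± 0.12 (adjusted p = 0.0111). Of these calls, those within vector cultures and at 2.0 µM held with each library left out, and the difference between the responses was lost without the unnumbered library of A53T in DMSO (adjusted p = 0.0667).

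Fkbp9, an ER member with several FKBP domains, moved in opposite directions in the 2 genotypes. It had 858 and 819 normalized counts in A53T cultures in DMSO, 689, 753 and 670 at 0.2 µM, and 672, 677 and 705 at 2.0 µM. In vector cultures the counts were 660, 646 and 603 in DMSO, 680, 617 and 730 at 0.2 µM, and 733, 784 and 805 at 2.0 µM. The 2 libraries of A53T in DMSO were the highest of all 17. In DMSO, A53T cultures averaged 838 ± 28 (SD, n = 2) and vector cultures 636 ± 30 (SD, n = 3), a difference of 0.40 ± 0.08 (adjusted p = 0.00604) that was lost without A53T in DMSO replicate 1 (adjusted p = 0.0835). At 2.0 µM Fkbp9 fell in A53T cultures (-0.29 ± 0.08, adjusted p = 0.014), a call lost without either library of A53T in DMSO (highest adjusted p = 0.104) and in a fit of only the 2 groups (adjusted p = 0.0663). In vector cultures it rose (0.28 ± 0.07, adjusted p = 0.00564), and this call held with each library left out. The rise over 0.2 µM in vector cultures (0.20 ± 0.07, adjusted p = 0.0479) was lost without any 1 of 11 libraries (highest adjusted p = 0.201) and without the 3 libraries with a high ribosomal share (adjusted p = 0.07). The difference between the responses to 2.0 µM was -0.58 ± 0.11 (adjusted p = 0.00475). It held with each library left out, where it ran from -0.61 to -0.54, and was -0.55 without those 3 libraries. The contrasts share their DMSO groups, so the A53T difference in DMSO and the fall at 2.0 µM in A53T cultures are not separate observations.

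Fkbp2 encodes a small FKBP of the ER lumen. In A53T cultures it had 1409 and 1364 normalized counts in DMSO, 424, 433 and 415 at 0.2 µM, and 2415, 1633 and 1405 at 2.0 µM. Its vector libraries held 1897, 2174 and 2215 in DMSO, 1637, 1271 and 1105 at 0.2 µM, and 1220, 1720 and 1213 at 2.0 µM. Its highest library in each group given FK506 outside A53T at 0.2 µM was the one with the high ribosomal share. The same held for Fkbp1a, Fkbp1b, Fkbp4, Fkbp8 and Fkbp10, and not for Fkbp3, Fkbp5, Fkbp9 and Fkbp14. Fkbp2 fell in vector cultures at 0.2 µM (-0.66 ± 0.20, adjusted p = 0.0352) and at 2.0 µM (-0.61 ± 0.20, adjusted p = 0.0206), each against DMSO. Leaving out any 1 of 7 libraries ended the first call (highest adjusted p = 0.143), and any 1 of 4 the second (highest adjusted p = 0.0771). In DMSO it was at -0.59 ± 0.22 in A53T against vector cultures (adjusted p = 0.0933), with no overlap. Without the 3 libraries with a high ribosomal share the adjusted p was 3.08e-05 at the same log2 fold change. The response to 2.0 µM differed between the genotypes by 0.97 ± 0.29 (adjusted p = 0.0453), a call lost without any 1 of 10 libraries (highest adjusted p = 0.146).

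Fkbp14, an ER member that binds collagen, was lowest in count. It had 117 and 89.4 normalized counts in A53T cultures in DMSO, 214, 195 and 222 at 0.2 µM, and 127, 131 and 163 at 2.0 µM. The vector cultures had 114, 82.6 and 104 in DMSO, 114, 147 and 134 at 0.2 µM, and 139, 98.2 and 151 at 2.0 µM. Outside A53T at 0.2 µM the groups next to each other in the order of their means overlapped. At 2.0 µM against DMSO the log2 fold change was 0.44 ± 0.21 in A53T cultures (adjusted p = 0.114) and 0.35 ± 0.19 in vector cultures (adjusted p = 0.147). Without the 3 libraries with a high ribosomal share these were 0.51 (adjusted p = 0.0292) and 0.54 (adjusted p = 0.00965).

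Genes that work beside the ER members were read from 2 lists. Of 15 ER chaperone genes, 11 rose and 0 fell in A53T cultures at 2.0 µM, with 19.7% and 17.9% of all genes. In vector cultures 12 rose and 0 fell, with 23.4% and 23.8% of all genes. Hspa5, the chaperone BiP, rose by 0.81 ± 0.08 in A53T and 1.13 ± 0.07 in vector cultures, and Herpud1, a factor of ER-associated degradation, by 0.90 ± 0.07 in A53T and 0.67 ± 0.06 in vector cultures. For A53T against vector in DMSO, 5 were higher and 0 lower, with 5.85% and 8.19% of all genes. Among the 5 were Hspa5 (0.48 ± 0.08) and Dnajb9 (0.72 ± 0.16). Without the 3 libraries with a high ribosomal share 9 were higher and 1 lower, given without the share of all genes. Of 15 measured genes of collagen synthesis and folding, 5 rose and 2 fell in A53T cultures at 2.0 µM, and 6 rose and 1 fell in vector cultures. The collagen chaperone Serpinh1 rose by 0.53 ± 0.08 in A53T and 1.19 ± 0.07 in vector cultures, and P3h1, a prolyl hydroxylase of collagen, by 0.89 ± 0.13 in A53T and 1.23 ± 0.12 in vector cultures. Plod2, a lysyl hydroxylase, fell in A53T cultures (-0.82 ± 0.17). Of all genes 6.45% had a lower and 8.14% a higher response to 2.0 µM in A53T than in vector cultures. Of the 15 collagen genes, the response was lower for 3 and higher for 0. These were P4hb (-0.77 ± 0.11, adjusted p = 0.000964), a subunit of collagen prolyl hydroxylase, Serpinh1 (-0.66 ± 0.11, adjusted p = 0.0027) and P4ha1 (-1.01 ± 0.26, adjusted p = 0.0221), its catalytic subunit. This became 1 higher and 5 lower without the 3 libraries with a high ribosomal share. Of the 15 ER chaperones 0 were higher and 1 was lower, Dnajc3 (-0.70 ± 0.15, adjusted p = 0.0109), and 2 were higher and 3 lower without those 3 libraries. The summed markers of fibroblasts and meninges (7 of 8 measured) ran from 466 to 546 normalized counts in A53T at 2.0 µM and from 948 to 1127 in A53T in DMSO. They ran from 765 to 801 in vector at 2.0 µM and from 1248 to 1385 in vector in DMSO, so in vector cultures they were lower at the dose where Fkbp10 was higher, and their part in the result was not tested.

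The test of the genotype difference in the response to 2.0 µM was positive for 3 members (Fkbp2, Fkbp3 and Fkbp5) and negative for 2 (Fkbp9 and Fkbp10), against 8.14% and 6.45% of all genes. The count was 6 without the 3 libraries with a high ribosomal share, and 3 when libraries were rescaled by median-of-ratios, both given without the share of all genes. The median of this difference was 0.22 over the 10 members. Of 75 ribosomal protein genes 1 was called, with a median difference of 0.21. In the same test 5 of 10 astrocyte markers were higher and 1 lower, 3 of 5 GABAergic markers higher and 0 lower, 3 of 6 oligodendrocyte lineage markers higher and 0 lower, 0 of 7 glutamatergic markers higher and 1 lower, and 1 of 7 fibroblast and meninges markers higher and 1 lower. Of 9 general neuron markers 0 were called. Their part in the members' differences was not tested.

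**Figure D3:**
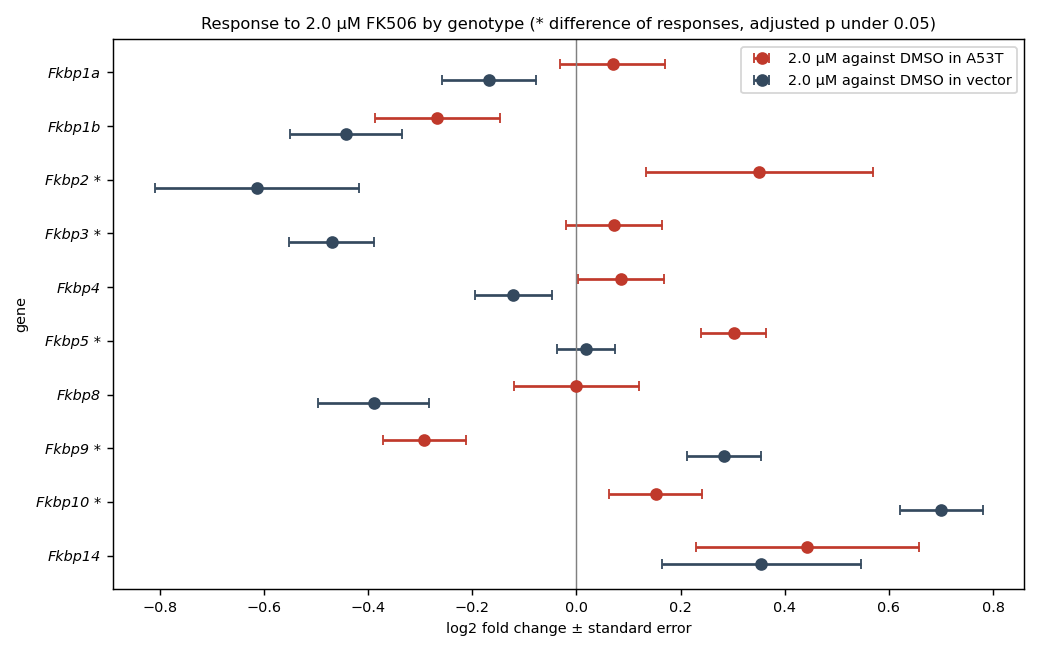
log2 fold change at 2.0 µM FK506 against DMSO for each FKBP gene in A53T cultures (red, upper point) and vector cultures (dark blue, lower point); bars are standard errors from limma, and an asterisk marks genes whose responses differed between genotypes at an adjusted p under 0.05. Fkbp9 lies at -0.29 in A53T and 0.28 in vector cultures, and Fkbp10 at 0.15 in A53T and 0.70 in vector cultures.

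A53T cultures at 0.2 µM stood apart from all other groups. Against A53T in DMSO, 1 member rose and 6 fell, while 33.6% of all genes were higher and 34.2% lower. The 6 were Fkbp2 (-1.71 ± 0.29), Fkbp8 (-1.15 ± 0.16), Fkbp1a (-0.84 ± 0.14), Fkbp1b (-0.84 ± 0.16), Fkbp3 (-0.75 ± 0.12) and Fkbp4 (-0.58 ± 0.11), with adjusted p from 0.000102 to 0.000692. Against vector at 0.2 µM the same 6 were lower, from -1.64 ± 0.28 for Fkbp2 to -0.70 ± 0.12 for Fkbp3, and 1 was higher, with 33.8% of all genes higher and 35.1% lower. At 2.0 µM against 0.2 µM in A53T cultures 7 members rose and 0 fell, with 38.7% and 38.5% of all genes. These were the same 6 and Fkbp10 (0.30 ± 0.11, adjusted p = 0.0285), whose call was lost without A53T at 2.0 µM replicate 1 (adjusted p = 0.0658). In a fit of only these 2 groups Fkbp1b (adjusted p = 0.0963) and Fkbp10 (adjusted p = 0.18) were not called. Fkbp14 was the member that rose at 0.2 µM, by 1.03 ± 0.29 against A53T in DMSO (adjusted p = 0.00685) and by 0.68 ± 0.27 against vector at 0.2 µM (adjusted p = 0.0394). Both of its calls were lost under quantile normalization, and the second without A53T at 0.2 µM replicate 3 or vector at 0.2 µM replicate 1 or 3 (highest adjusted p = 0.091). The response to 0.2 µM was lower in A53T than in vector cultures for 7 members (Fkbp1a, Fkbp1b, Fkbp2, Fkbp3, Fkbp4, Fkbp8 and Fkbp9) and higher for 0, against 25.2% and 22.1% of all genes. Leaving out any 1 of 14 libraries ended the call of Fkbp9 (highest adjusted p = 0.13), any 1 of 4 that of Fkbp2 (adjusted p = 0.0727), and leaving out A53T in DMSO replicate 1 that of Fkbp3 (adjusted p = 0.0582). As a single sample this group has no spread of its own, and the fit lends it that of the others.

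The ribosomal protein genes moved with these members. Against A53T in DMSO 74 of the 75 fell at 0.2 µM, with a median of -1.41, and at 2.0 µM against 0.2 µM all 75 rose, with a median of 1.90. The median count of a gene was 589 to 592 in these libraries and 491 to 520 in the others. Under quantile normalization the median of all genes was -0.20 for 0.2 µM against DMSO in A53T cultures and -0.22 for A53T against vector at 0.2 µM, where the deposited scale gave -0.00 and -0.01, and the 6 falls were still called in both. Of the 11 partners of FKBP12, 10 rose and 0 fell against A53T in DMSO, with 33.6% and 34.2% of all genes. The 10 included Ryr2 (1.71 ± 0.18) and Itpr2 (2.09 ± 0.21). The part of RNA quality or library make-up in these differences was not tested.

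**Figure D4:**
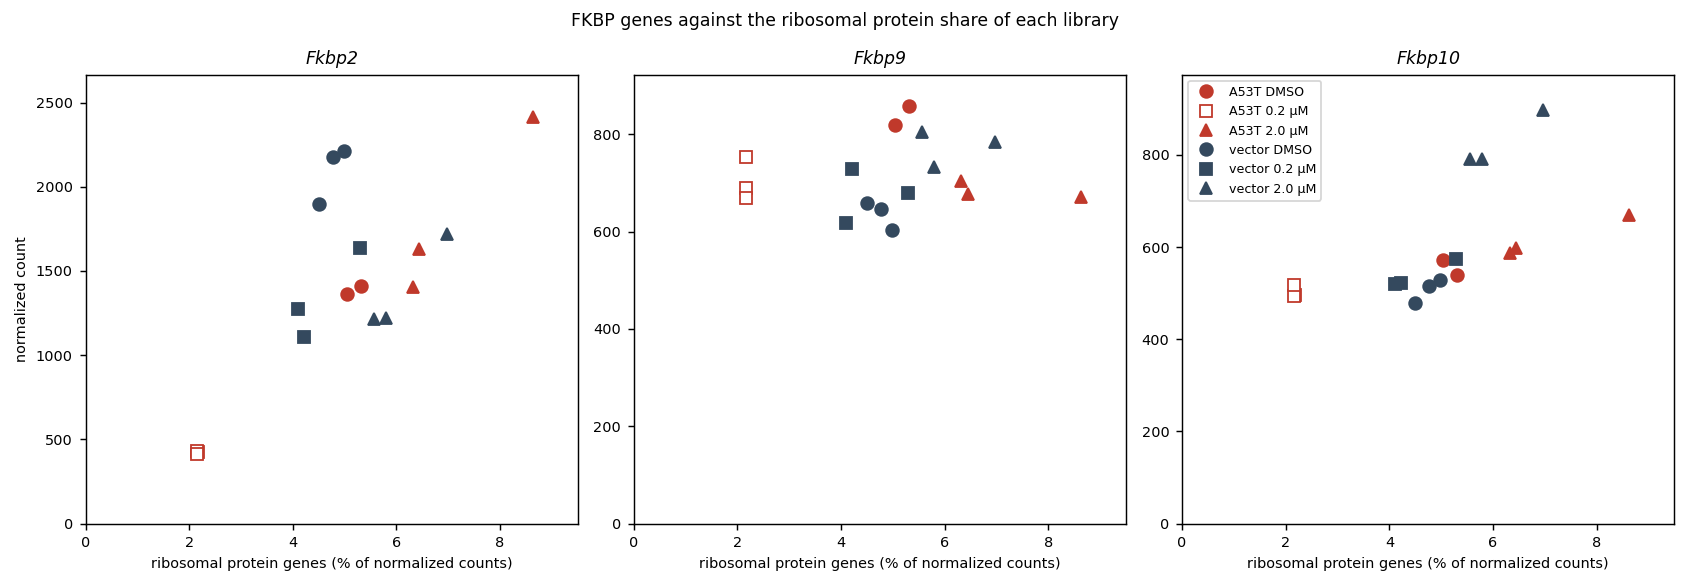
Normalized counts of Fkbp2, Fkbp9 and Fkbp10 (vertical axes) against the share of counts held by 75 ribosomal protein genes (horizontal axes, %) in each of the 17 libraries; colour gives genotype and marker shape gives dose. The open squares of A53T at 0.2 µM lie at 2.16% to 2.17%, with Fkbp2 at 415 to 433, while Fkbp10 in vector at 2.0 µM lies at 790 to 898 over shares of 5.56% to 6.97%.

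Relatives of the 10 members were read in the same fit. Fkbp7, another FKBP of the ER, rose at 2.0 µM in A53T (0.48 ± 0.15, adjusted p = 0.0244) and vector cultures (0.64 ± 0.13, adjusted p = 0.00156). At 0.2 µM Fkbp11, also of the ER, fell in A53T cultures (-1.27 ± 0.28, adjusted p = 0.0017). Of 14 measured cyclophilins, the immunophilins that bind cyclosporin, 5 rose and 0 fell at 2.0 µM in A53T cultures, with 19.7% and 17.9% of all genes. In vector cultures 6 rose and 2 fell, with 23.4% and 23.8% of all genes. Without the 3 libraries with a high ribosomal share the counts were 7 and 1 in A53T, and 7 and 3 in vector cultures. Ppid, the cyclophilin that binds HSP90, rose by 0.41 ± 0.07 in A53T and 0.58 ± 0.07 in vector cultures. At 0.2 µM in A53T cultures 3 rose and 8 fell, with 33.6% and 34.2% of all genes. Ppia, the main cyclosporin receptor, was at -1.26 ± 0.17.

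The genes most like each member were listed over the 15 samples where the member's group means spanned at least 0.5 on the log2 scale, which left out Fkbp5 and Fkbp9. These coefficients describe samples that share libraries and depth. Fkbp1b was most like Nrgn, which encodes the postsynaptic protein neurogranin (r = 0.978), Begain (0.976) and Rtn4r (0.975), and without A53T at 0.2 µM these were 0.964, 0.965 and 0.959. Fkbp2 was most like Ndufs3, Ndufb9 and Ndufv2 (0.993 each), subunits of respiratory complex I. Fkbp1a was most like Cox8a, Ube2m and Cops5 (0.993 each), and Fkbp8 most like Camk1, Babam1 and Tecr (0.994 each). Fkbp10 was most like Rbm7 (0.96), Ddx50 (0.957) and Srfbp1 (0.955), which were 0.97, 0.955 and 0.954 without A53T at 0.2 µM. For Fkbp14 the closest gene, Osbp2, reached 0.924.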

How the data were processed

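Gene counts were normalized and deposited by the authors, and these values were treated as a signal, since their method is not given in the sources used here. FastQC, TopHat, HTSeq and rn6, a rat build, appear in the submitters' processing notes without versions, and per the labels' protocols a stranded mRNA kit was used. For testing, log2(value + 1) was passed to limma 3.58.1 under R 4.3.3 with trend=TRUE. A single model of 6 group means gave 11 contrasts, 2 of them interactions. Benjamini-Hochberg adjustment ran over all 11247 genes, with a threshold of 0.05. A minimum mean of 1 removed 0 genes. The 3 libraries of A53T at 0.2 µM entered as their mean. The fit thus had 15 samples, with 9 residual degrees of freedom. The column of 1 library of A53T in DMSO carries another number than its sample's title, so it was used without a number. The fit was also run on simulated data, with independent noise in each library and changes in vector at 2.0 µM only. That run does not bear on libraries that lay apart from their replicates or on A53T at 0.2 µM. The members and gene lists were chosen with earlier results of these data known. From each list at most 3 genes per contrast, by smallest p, are named. Whole reads were not recovered, so no count test was run. Levels were not compared between genes, because the values are not per length. Alternatives were other pseudocounts, filters, scalings, a replicate block, a robust fit, fits of only the groups compared and leaving out libraries. One listed relative of the members is not reported here.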

Additional observations from a re-analysis of the deposited data

Results flagged for a closer look

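The response to FK506 differed between the genotypes by a test of the difference itself (limma, A53T response minus vector response, adjusted p under 0.05) for the members below.

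At 2.0 µM the difference was positive for Fkbp2 (0.9655), Fkbp3 (0.5417) and Fkbp5 (0.2838). It was negative for Fkbp9 (-0.575) and Fkbp10 (-0.5486). The log2 fold changes at 2.0 µM against DMSO were 0.35 in A53T and -0.61 in vector cultures for Fkbp2, 0.07 and -0.47 for Fkbp3, 0.30 and 0.02 for Fkbp5, -0.29 and 0.28 for Fkbp9, and 0.15 and 0.70 for Fkbp10. The difference for Fkbp2 was lost without any 1 of 10 libraries and that for Fkbp5 without any 1 of 11. That for Fkbp3 was lost without either library of A53T in DMSO, that for Fkbp10 without the unnumbered library of that group, and that for Fkbp9 with none of the libraries left out in turn. The count of 5 became 1 to 6 when 1 library was left out.

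At 0.2 µM the difference was negative for Fkbp1a (-0.5661), Fkbp1b (-0.735), Fkbp2 (-1.0448), Fkbp3 (-0.4706), Fkbp4 (-0.5103), Fkbp8 (-0.8228) and Fkbp9 (-0.3359). These rest on A53T at 0.2 µM, whose 3 libraries were counted as 1 sample and in which 71 of 75 ribosomal protein genes also had a lower response than in vector cultures. The difference for Fkbp9 was lost without any 1 of 14 libraries, that for Fkbp2 without any 1 of 4 and that for Fkbp3 without A53T in DMSO replicate 1, and the count of 7 became 4 to 7 when 1 library was left out.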

How the results depend on the processing

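Over the 11 comparisons 53 of 110 gene results were called, and 0 reversed in any of 29 settings. Pseudocounts of 0.25 and 4, no filter, a mean of at least 50, and all 17 libraries as separate samples kept 53 calls each, a robust fit 52, median-of-ratios rescaling 48 and quantile normalization 45. Fits of only the groups compared kept 43. With libraries left out 1 at a time, 39 to 53 were kept, and 32 calls were kept in every such fit. Leaving out 1 library gave 0 to 4 members called for A53T against vector in DMSO, 0 to 4 for vector at 0.2 µM and 5 to 7 for vector at 2.0 µM against DMSO, 1 to 3 for vector at 2.0 µM against 0.2 µM, 7 to 8 for A53T at 0.2 µM and 1 to 3 for A53T at 2.0 µM against DMSO, 6 to 8 for A53T at 2.0 µM against 0.2 µM, 6 to 7 and 1 to 3 for A53T against vector at 0.2 and 2.0 µM, and 1 to 6 and 4 to 7 for the interactions at 2.0 and 0.2 µM. Fits of only the groups compared gave 7 for A53T against vector in DMSO, 0 for A53T at 2.0 µM against DMSO and 1 for A53T against vector at 2.0 µM. Median-of-ratios rescaling gave 3 for the interaction at 2.0 µM. Without the 3 libraries with a high ribosomal share the counts were 8 for A53T against vector in DMSO, 5 for vector at 0.2 µM and 4 for A53T at 2.0 µM, each against DMSO. The share of all genes called in these fits is not given here, so a change in a count is not a result about the members. The cause was not tested.

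Whether replicate numbers in the titles pair the samples was not settled. Of 18 same-numbered pairs 7 had deviations from their group mean correlated over 0.1, with a range from -0.51 to 0.669. This check left out A53T in DMSO and A53T at 0.2 µM. It cannot exclude pairing, because deviations of libraries in 1 group depend on each other. A replicate block by title numbers can hold only libraries whose column matches a title. The column of 1 library of A53T in DMSO carries another number than its sample's title, so this library was left out. That group entered this fit with 1 library, so the members called in it are not counted here. Calls were lost in this fit, among them those of each interaction and those for A53T against vector in DMSO. Those for vector at 0.2 µM against DMSO, a comparison without that group, were lost as well. How much of the loss came from the block and how much from the smaller group was not tested. With the column numbers as a block, chosen after seeing the data, 48 of the 53 calls were kept and the interaction at 2.0 µM had 3. Raw depth is unknown, which limits what can be said of Fkbp14, the member with the lowest counts.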
